A study of Saccharomyces cerevisiae with 7 samples.

Results

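The long protein-coding genes described here are the 146 genes, among 3000 with systematic names of reading frames, whose exon lengths in the deposited annotation of Saccharomyces cerevisiae transcripts add up to 3000 nt or more. The exon entries hold coding sequence and the stop codon, so the limit corresponds to 1000 codons with the stop codon counted. Polyadenylated RNA from cells grown at 23 °C to log phase was folded in vitro in 10 mM magnesium and 100 mM potassium chloride and cut for 15 min either with RNase V1, which cleaves paired bases, in 4 libraries, or with nuclease S1, labelled RNase S1, which cleaves unpaired bases, in 3 libraries. All 7 libraries came from one growth condition, the labels give no strain, genotype or drug, and the titles name total RNA where other labels name polyadenylated RNA. Cleavage values per library were not analysed here, so the measurements are lengths and positions in the annotation, depth is unknown, and no value carries a replicate error. The other 2854 listed mRNAs serve as the comparison. Of 523 nuclear reading frames of 3000 nt or more in the R64 reference, the annotation held 146 (27.9%). It held 2853 of 5479 shorter ones (52.1%). Coverage of the long genes also differed by function, so every comparison below describes the listed genes and not all long yeast genes. No test was made over genes: medians are given with 95% intervals from order statistics and shares with 95% Wilson intervals, which treat genes as independent draws and do not cover errors of the annotation.

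A eukaryotic mRNA carries an untranslated region (UTR) on each side of its coding region. The small ribosomal subunit binds at the capped 5' end and scans the 5' UTR, or leader, to the start codon, so the length of the leader and any start codon inside it bear on how often the main reading frame is translated. The 3' UTR, between the stop codon and the poly(A) tail, holds signals for cleavage and polyadenylation and binding sites for proteins that set mRNA decay and localisation. Very large yeast proteins include signalling kinases, chromatin and transcription cofactors, motors, proteins of DNA replication and repair, multifunctional enzymes, nucleoporins, membrane pumps and coat proteins.

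Coding length, which chose the genes, ran from 3006 to 8019 nt with a median of 3661.5 nt. The longest listed coding region was that of GCN1, which encodes an activator of the kinase that senses amino acid starvation (8019 nt, chromosome 7, 131531 to 139549). It was followed by ACC1, acetyl-CoA carboxylase, the enzyme that commits carbon to fatty acids (6702 nt), URA2, the bifunctional enzyme that starts pyrimidine synthesis (6645 nt), BEM2, a GTPase-activating protein of bud emergence (6504 nt), and GLT1, glutamate synthase (6438 nt). The next 5 were BLM10, a proteasome activator (6432 nt), FAS1, the beta subunit of fatty acid synthase (6156 nt), CYR1, adenylate cyclase (6081 nt), SEC7, an exchange factor for Arf GTPases at the Golgi (6030 nt), and STT4, a phosphatidylinositol 4-kinase (5703 nt). Just inside the limit lay DIS3, an exosome nuclease (3006 nt), FUN12, initiation factor eIF5B (3009 nt), and RAT1, the nuclear 5' exonuclease (3021 nt). Just outside it lay NMA111, a nuclear protease (2994 nt), OSH3, an oxysterol-binding protein homologue (2991 nt), and RPN1, a proteasome base subunit (2982 nt). Positions follow the deposited annotation, and no source used here names its build. By name, 145 of the 146 coding lengths were identical to those of the R64 reference, and SAP190, a partner of the phosphatase Sit4, was listed with 3297 nt against 3102 nt in R64.

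The leaders of long genes were longer than those of other mRNAs by their medians. The median 5' UTR was 87 nt (95% interval 69 to 107 nt, quartiles 47.5 and 159.5 nt, 135 mRNAs), against 49 nt (48 to 51 nt, quartiles 30 and 91 nt) in 2544 other mRNAs, and the intervals did not overlap. Of the 135, 94 (69.6%) lay above the median of all mRNAs, which was 50 nt. A 5' UTR of 150 nt or more was listed for 40 of 135 long genes (29.6%, 22.6 to 37.8%), where 13.3% of all mRNAs with a listed 5' UTR reach that length. Among coding regions of 2000 to under 3000 nt it was 59 of 280 (21.1%, 16.7 to 26.2%), an interval that overlaps that of the long genes. At the other end, 6 long genes had a 5' UTR of 20 nt or less (4.44%, 2.05 to 9.36%), against 12.1% of all mRNAs.

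**Figure D1:**
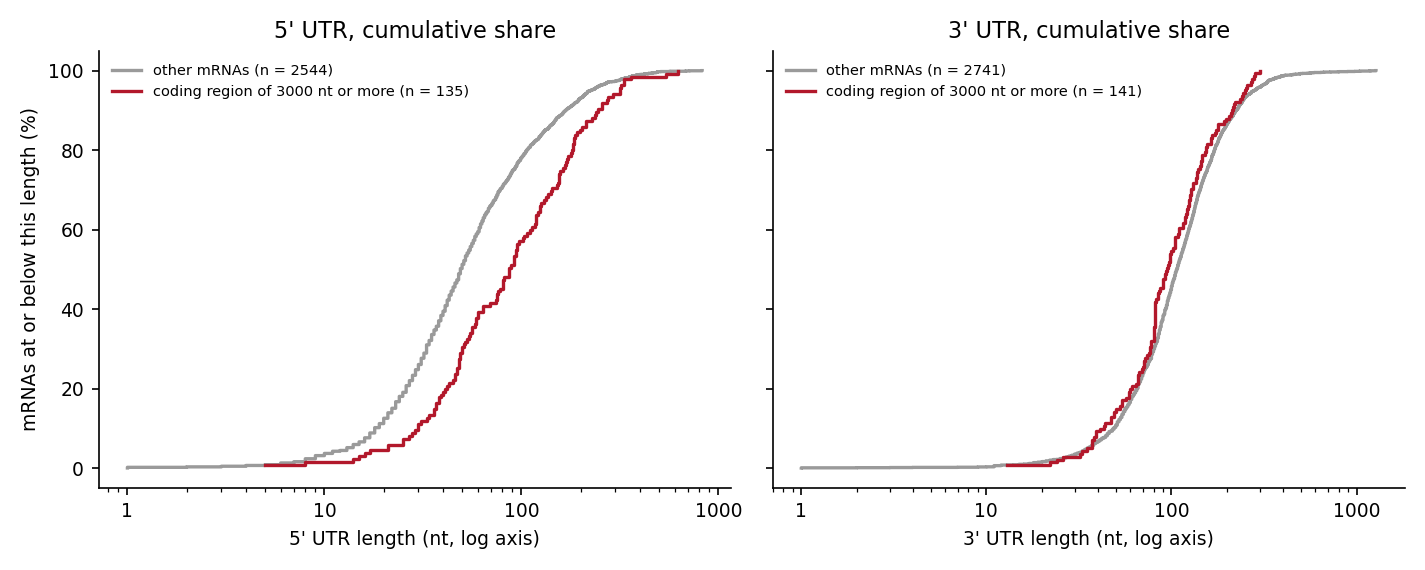
Cumulative share of mRNAs (vertical axis, percent) at or below a UTR length (horizontal axis, nt, log scale) for the 5' UTR (left) and 3' UTR (right), in long genes (red) and other mRNAs (grey). The red 5' UTR curve lies to the right of the grey one, with medians of 87 and 49 nt, whereas the 3' UTR curves, with medians of 95 and 107 nt, lie close together.

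The longest 5' UTRs among them were those of URA2 (624 nt, chromosome 10, 172365 to 172988) and ACC1 (545 nt, chromosome 14, 661377 to 661921). They stood well apart from the next, MSN5, a nuclear export receptor (361 nt), XRN1, the cytoplasmic 5' exonuclease of mRNA decay (333 nt), and NEO1, a P-type ATPase that moves phospholipids across membranes (330 nt). FAS1 came next with 321 nt. The genes at the short end were VSB1, a vacuolar membrane protein (5 nt), MSB2, a signalling mucin of the cell surface (8 nt), STT4 (14 nt), ILS1, isoleucyl-tRNA synthetase (15 nt), and JSN1, an RNA-binding protein of the Puf family (16 nt). These 5 leaders are short enough to be shown whole, read from the R64 reference by gene name over the listed 5' UTR length, with the start codon in capitals and the second codon after it.
VSB1: gaaatATGgga
MSB2: acccatctATGcag
STT4: ctcgtttaaggcagATGaga
ILS1: aaaaaccaaggaaatATGtcc
JSN1: tttattccttcttaagATGgat
None of the 5 holds a second ATG before the start codon, and few leaders this short do: 10 of 271 leaders of 20 nt or less in other mRNAs (3.69%).

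Length of the 5' UTR increased from class to class of coding length over most of the range rather than stepping up at 3000 nt. The median was 36 nt (34 to 39 nt) for coding regions under 600 nt, 46 nt for 600 to 999 nt, 55 nt for 1000 to 1499 nt, 66.5 nt for 1500 to 1999 nt and 63.5 nt (54 to 74 nt) for 2000 to under 3000 nt. It was 81 nt (56 to 95 nt, 83 mRNAs) for 3000 to under 4000 nt and 104.5 nt (64 to 156 nt, 52 mRNAs) for 4000 nt and above. The intervals of neighbouring classes from 1500 nt upwards overlapped. Within the long genes the rank correlation of coding and 5' UTR length was 0.22 (Spearman rho, 135 mRNAs, Pearson r of log2 lengths 0.21), close to 0.23 in the other 2544. The longest listed coding region did not follow this trend, as GCN1 had a 5' UTR of 30 nt, nor did STT4. These correlations describe genes of one annotation, which share the way their ends were mapped.

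**Figure D2:**
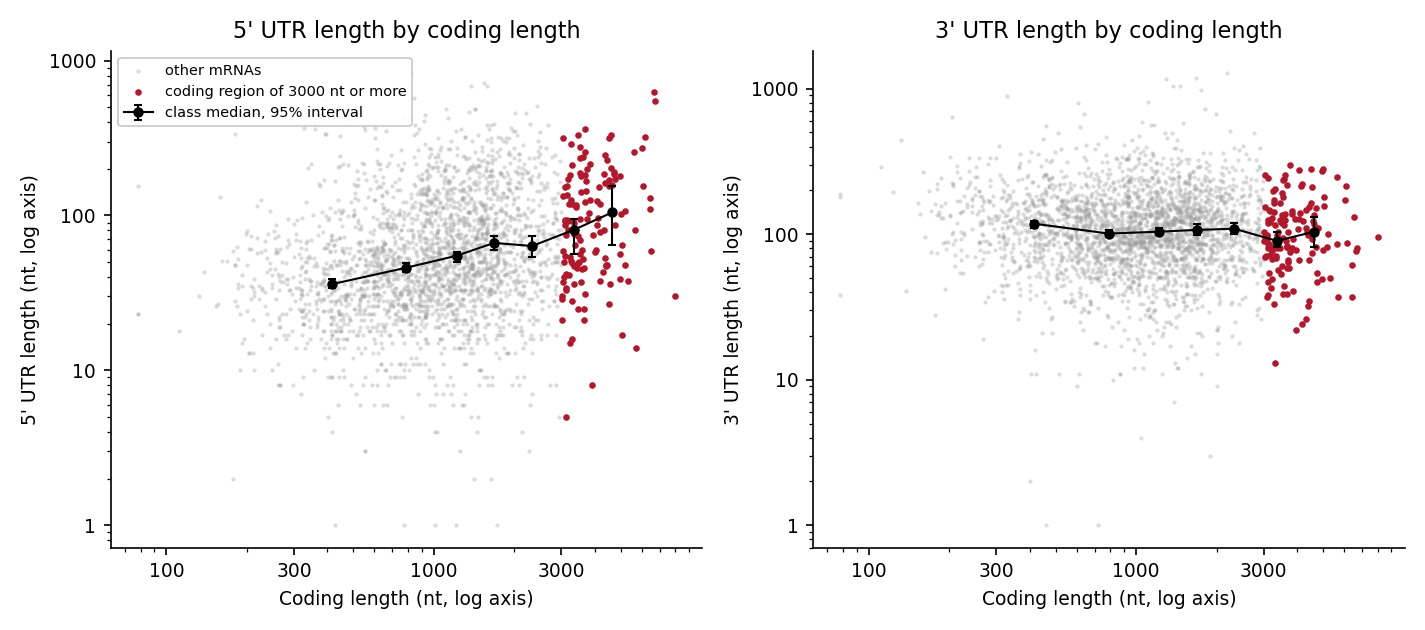
UTR length (vertical axis, nt, log scale) against coding length (horizontal axis, nt, log scale) for the 5' UTR (left) and the 3' UTR (right). Each dot is an mRNA, red for coding regions of 3000 nt or more, and black points are class medians with 95% intervals: the 5' UTR medians run from 36 to 104.5 nt, the 3' UTR medians stay between 90 and 118 nt.

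The 3' UTRs of long genes were close to those of other mRNAs. Their median was 95 nt (82 to 108 nt, quartiles 70 and 139 nt, 141 mRNAs), against 107 nt (104 to 110 nt) in 2741 others, and the intervals overlapped. Of the 141, 59 (41.8%, 34.0 to 50.1%) lay above the median of all mRNAs, 106 nt. A 3' UTR of 200 nt or more was listed for 17 (12.1%, 7.67 to 18.5%), near the 13.4% of all mRNAs, and one of 55 nt or less for 24 (17%, 11.7 to 24.1%), near the 14.4% of all. The rank correlation of coding and 3' UTR length within the long genes was 0.06 (141 mRNAs, Pearson r of log2 lengths 0.04).

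The longest 3' UTR among long genes was that of SSD1, an RNA-binding protein that represses translation of cell wall mRNAs (301 nt, chromosome 4, 1045336 to 1045636). It was followed by RPA190, the largest subunit of RNA polymerase I (282 nt), NUP170, an inner ring nucleoporin (280 nt), ADE6, an enzyme of purine synthesis (274 nt), and CHC1, the clathrin heavy chain (270 nt). None came near the longest 3' UTR of the whole annotation, 1274 nt. The shortest was listed for SAP190 (13 nt), the gene whose coding length differs from the reference, followed by NUP145, a nucleoporin precursor that cleaves itself (22 nt), LYS2, the aminoadipate reductase of lysine synthesis (24 nt), MET5, the beta subunit of sulfite reductase (26 nt), and NUP159, a nucleoporin of the cytoplasmic face (32 nt).

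The usual order of a yeast mRNA, a longer 3' than 5' UTR, held less widely in these genes. Both UTRs were listed for 135, and the 3' UTR was the longer in 72 of them (53.3%, 44.9 to 61.5%), against 1935 of 2539 other mRNAs (76.2%, 74.5 to 77.8%). The 5' UTR was the longer in 61 (45.2%, 37.0 to 53.6%), where 24.6% of all mRNAs show that order. In coding regions of 2000 to under 3000 nt the count was 79 of 279 (28.3%, 23.4 to 33.9%), below the interval of the long genes. In 2 genes the lengths were equal, PYC1, a pyruvate carboxylase (235 nt at each end), and VAS1, valyl-tRNA synthetase (82 nt). RPB2, the second largest subunit of RNA polymerase II, had 257 nt at the 5' and 39 nt at the 3' end, whereas NUP170 had 27 and 280 nt. The rank correlation of the UTR lengths within a gene was 0.11 (135 mRNAs), against 0.12 in 2539 others.

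**Figure D3:**
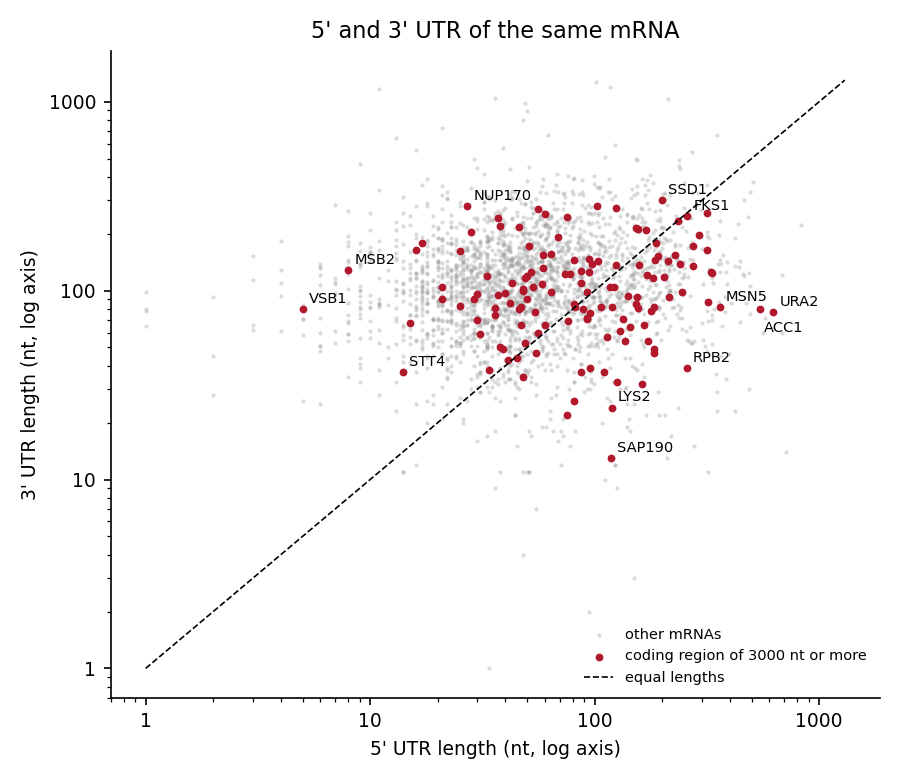
3' UTR length (vertical axis, nt, log scale) against 5' UTR length (horizontal axis, nt, log scale) of each mRNA with both UTRs listed, long genes in red and others in grey, with a dashed line of equal lengths. Of the 135 red points, 72 lie above the line and 61 below it.

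Together the UTRs had a median of 197 nt in long genes (171 to 226 nt) and 172 nt in other mRNAs (166 to 178 nt), so their share of the transcript was set mostly by the coding region that chose the genes. That share had a median of 4.92% (4.60 to 5.82%), against 14.9% in the others, and lay under 5% in 69 of 135 (51.1%), against 7.26% of all mRNAs with both UTRs listed. It was smallest in STT4 (0.89%), GCN1 (1.55%) and UTP10, a component of the small subunit processome (1.63%). The highest shares were those of REG1, a regulatory subunit of the glucose repression phosphatase (15.9%), and CRM1, the main nuclear export receptor (13.0%).

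Of the 11 long genes that lack a complete pair of UTRs, 6 were listed with a 3' UTR alone: DNF1, SSM4, TRS120, GIP3, SLA1 and VMA1. Neither UTR was listed for DNF2, HAP1, NAB6, BRE4 and KAP122. The share with both UTRs was 92.5% (87.0 to 95.7%), against 89.0% in the others. The strands were about evenly used, with 69 of 146 on the plus strand (47.3%, 39.3 to 55.3%).

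Long leaders offer more room for an ATG upstream of the start codon, which can divert scanning ribosomes, yet few of these leaders held one. The leader was read from R64 by gene name for the 134 long genes and 2342 other mRNAs whose coding length is the same in both sources, with no gap between exons. An upstream ATG occurred in 12 of the 134 (8.96%, 5.2 to 15.0%), against 380 of 2342 others (16.2%, 14.8 to 17.8%) and 15.8% of all leaders read. Read at the leader lengths of the long genes, the others would give 24.3%. That value pools others of every shorter coding length, has no interval, and was not computed for the nearest class of coding length alone. Among coding regions of 2000 to under 3000 nt, 47 of 273 leaders held one (17.2%, 13.2 to 22.1%), an interval that overlaps that of the long genes. Per length, there were 32 ATGs in 15676 nt of long-gene leaders, or 2.04 per 1000 nt, and 4.30 per 1000 nt in the others. The same 3 letters in other orders occurred at similar rates in both sets: AGT came to 17.1 and 16.9 per 1000 nt, GTA to 13.5 and 14.5, TAG to 16.6 and 15.6, GAT to 12 and 12.4, and TGA to 11.8 and 12.8.

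Broken down by leader length, none of the 41 long genes with a leader of 50 nt or less had an upstream ATG (Wilson upper limit 8.57%), against 72 of 1153 others (6.24%), a difference that cannot be seen at this number. Of the leaders over 100 nt, 8 of 57 held one (14%, 7.29 to 25.3%), against 221 of 536 (41.2%, 37.1 to 45.4%), and these intervals did not overlap. Between 51 and 100 nt the shares were 11.1% and 13.3%. By coding length, ATGs per 1000 nt of leader were 6.95 under 600 nt, 4.54 at 600 to 999 nt, 4.33 at 1000 to 1499 nt, 3.12 at 1500 to 1999 nt, 2.62 at 2000 to under 3000 nt, 2.01 at 3000 to under 4000 nt and 2.07 from 4000 nt.

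**Figure D4:**
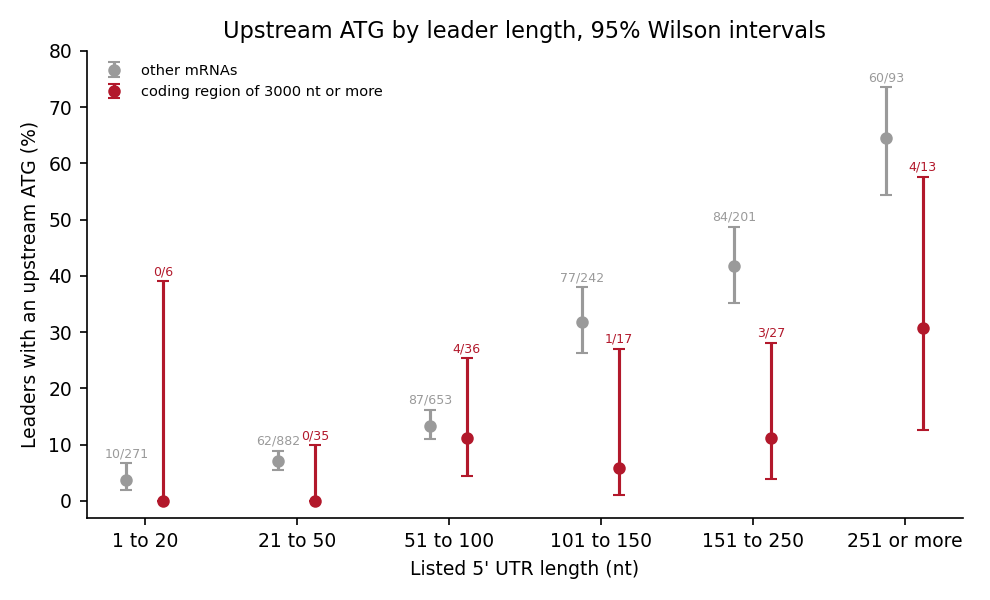
Share of leaders with an upstream ATG (vertical axis, percent, with 95% Wilson intervals) by listed 5' UTR length (horizontal axis, nt), for long genes (red) and other mRNAs (grey); the fractions are leaders with an ATG over leaders read. Over 100 nt the red points lie at 5.88, 11.1 and 30.8% and the grey ones at 31.8, 41.8 and 64.5%.

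The ATGs were unevenly spread, since URA2 (8), PYC1 (7) and IKI3, a subunit of the Elongator complex (4), held 19 of the 32. The URA2 leader also holds GTATGT followed by TACTAAC, the letters of a splice donor and a branch point, on the mRNA strand, in its listed length or 1 nt beyond the 5' end, as 1 of the 134 long genes and 16 of 2342 others (0.683%) do. Without URA2 the long-gene leaders had 1.59 ATGs per 1000 nt, and no matching rate was computed for the others. With such leaders left out of both sets, 8.27% of long-gene leaders and 15.6% of the others held an upstream ATG. The remaining genes were VAS1 with 3, GPI13, of glycolipid anchor synthesis, and MTR4, an RNA helicase of the nuclear exosome, with 2 each, and ACC1, ARO1, FAS1, PEX6, PMC1 and STE23 with 1 each. A frame opened by 25 of the 32 ended inside the leader, and those of the other 7, in VAS1, IKI3 and PEX6, ran past the start codon in another frame. Most frames in other mRNAs also ended inside the leader, 654 of 788, while 117 ran past the start codon in another frame and 17 in the main frame. Of the 25 in long genes, 13 were at most 30 nt long from ATG to stop codon. No such count is given here for other mRNAs, so this is not set against a background. A few are shown as examples, from enzymes of fatty acid, pyruvate and pyrimidine metabolism and from a calcium pump, with the ATG and the stop codon in capitals.
FAS1: ATGctctttgaatatttcTGA
ACC1: ATGtgtttaTAA
PMC1: ATGcgcctccagTAA
PYC1: ATGggtcatgctcggTAA
URA2: ATGattacttttgagaagcctTAA
The FAS1 frame starts 141 nt before the main start codon, that of ACC1 341 nt, that of PMC1 144 nt, that of PYC1 149 nt and that of URA2 374 nt. Whether any of them is translated was not measured.

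The base at the third position before the start codon, where yeast mRNAs favour A, was A in 80 of 134 long genes (59.7%, 51.2 to 67.6%) and in 1583 of 2335 others (67.8%, 65.9 to 69.7%). The intervals overlap. T stood there in 13.4% (8.67 to 20.2%) and 7.54% (6.54 to 8.68%). Windows of 12 nt before and 3 nt after the start codon are shown, with the start codon in capitals, for the longest listed coding region and for both subunits of fatty acid synthase.
GCN1: actcctacagtgATGaca
FAS1: tattcgctcattATGgac
FAS2: aataccatcattATGaag
Coding regions of long genes had a median GC content of 39.0% (38.6 to 39.3%, 145 genes), against 40.9% (40.8 to 41.1%) in 2834 others.

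In the 3' UTR, read from R64 in the same way for 140 long genes, the letters TGTANATA on the mRNA strand, which yeast Puf3 is known to bind, occurred in 12 (8.57%, 4.97 to 14.4%), against 406 of 2723 others (14.9%, 13.6 to 16.3%), and the intervals overlap. The letters TATATA, an efficiency element of polyadenylation that can overlap TGTANATA, occurred in 56 (40.0%, 32.3 to 48.3%), against 49.9% (48.1 to 51.8%). Longer UTRs hold more of any motif, and lengths were not equalised here. The 12 were ADE6, CLU1, DNF1, FUN12, GCV2, MYO4, NTE1, PIM1, RRP12, TPS3, UBA1 and YBT1, which act in many processes. The sites of 3 are shown as examples, chosen after the matches had been seen, with the motif in capitals and up to 6 letters on each side.
PIM1: acattcTGTAAATAtttaaa
GCV2: cacataTGTAGATAatataa
CLU1: catactTGTATATActacgt
A match is a description of these letters, and binding was not measured.

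The long genes were also described by function, with 17 gene lists that hold 103 of the 146. The highest list medians at the 5' end were those of the list of fatty acid, sterol and carboxylase genes and of the ATP-binding cassette transporters. The first list holds 7 enzymes and OSH2, an oxysterol-binding protein homologue (214 nt). All 8 lay above the 50 nt median of all mRNAs, where 94 of 135 long genes did, and their median was 185 nt. They ran from HMG1, HMG-CoA reductase, and FAS2, the alpha subunit of fatty acid synthase (81 nt each), to ACC1 (545 nt). The subunits of fatty acid synthase thus differed at the 5' end, with 321 nt for FAS1 and 81 nt for FAS2, and were alike at the 3' end, with 87 and 85 nt. ATP-binding cassette transporters, which export drugs and sequester metals or bile acids, had a median of 169 nt, and 6 of 7 lay above 50 nt. SNQ2 (317 nt) and YOR1 (228 nt), of multidrug resistance, were at the top, and the vacuolar transporter YCF1 (36 nt) at the bottom.

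For enzymes of amino acid, nucleotide and other metabolism the median 5' UTR was 114.5 nt, and 11 of 12 exceeded 50 nt, from TSL1, of trehalose synthesis (49 nt), to URA2 (624 nt). At the 3' end the same 12 had a median of 78.5 nt, between LYS2 (24 nt) and ADE6 (274 nt). Of these 12, 9 had a longer 5' than 3' UTR, against 61 of all 135 long genes and 24.6% of all mRNAs. No interval was computed for this small count. The lists were chosen with earlier results of these data known, so the count describes these 12 genes alone. For P-type ATPases and cation transporters the median 5' UTR was 115 nt in the 6 with a listed one, from SPF1, of the endoplasmic reticulum (21 nt), to NEO1 (330 nt), and a median 3' UTR of 90 nt in 7, from the potassium transporter TRK1 (64 nt) to the calcium pump PMC1 (135 nt).

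Large RNA polymerase subunits varied widely. RPO31, the largest subunit of polymerase III, had a 5' UTR of 246 nt and its partner RET1 25 nt, while in polymerase II it was RPB2 (257 nt) that exceeded RPO21 (48 nt). In polymerase I, RPA190 had 102 nt and RPA135 52 nt. The 3' UTRs ran from 39 nt in RPB2 to 282 nt in RPA190, so no subunit order was shared by the 3 enzymes.

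Genes of the nuclear pore and nuclear transport, the largest list with 16 members, varied widely at the 5' end. The median was 54 nt, and 8 of 15 exceeded 50 nt. The shortest leaders were those of the nucleoporins NUP192 (17 nt) and NUP170 (27 nt) and of LOS1, the tRNA export receptor (28 nt), and the longest those of the export receptors CRM1 (290 nt) and MSN5 (361 nt). Export receptors thus stood at both ends of the list, and nucleoporins ran from NUP192 to NUP159 (162 nt). At the 3' end the median was 81 nt, and the range from NUP145 (22 nt) to NUP170 (280 nt) spanned most of that of all long genes. Genes of translation had the lowest median 5' UTR of the 15 lists with members, 46.5 nt, and 4 of 8 exceeded 50 nt, from ILS1 (15 nt) and FUN12 (21 nt) to CLU1 (125 nt). None of these 8 had a 5' UTR longer than the 3' UTR, an order found in 24.6% of all mRNAs and 45.2% of long genes, and 8 genes are too few to set this apart.

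**Figure D5:**
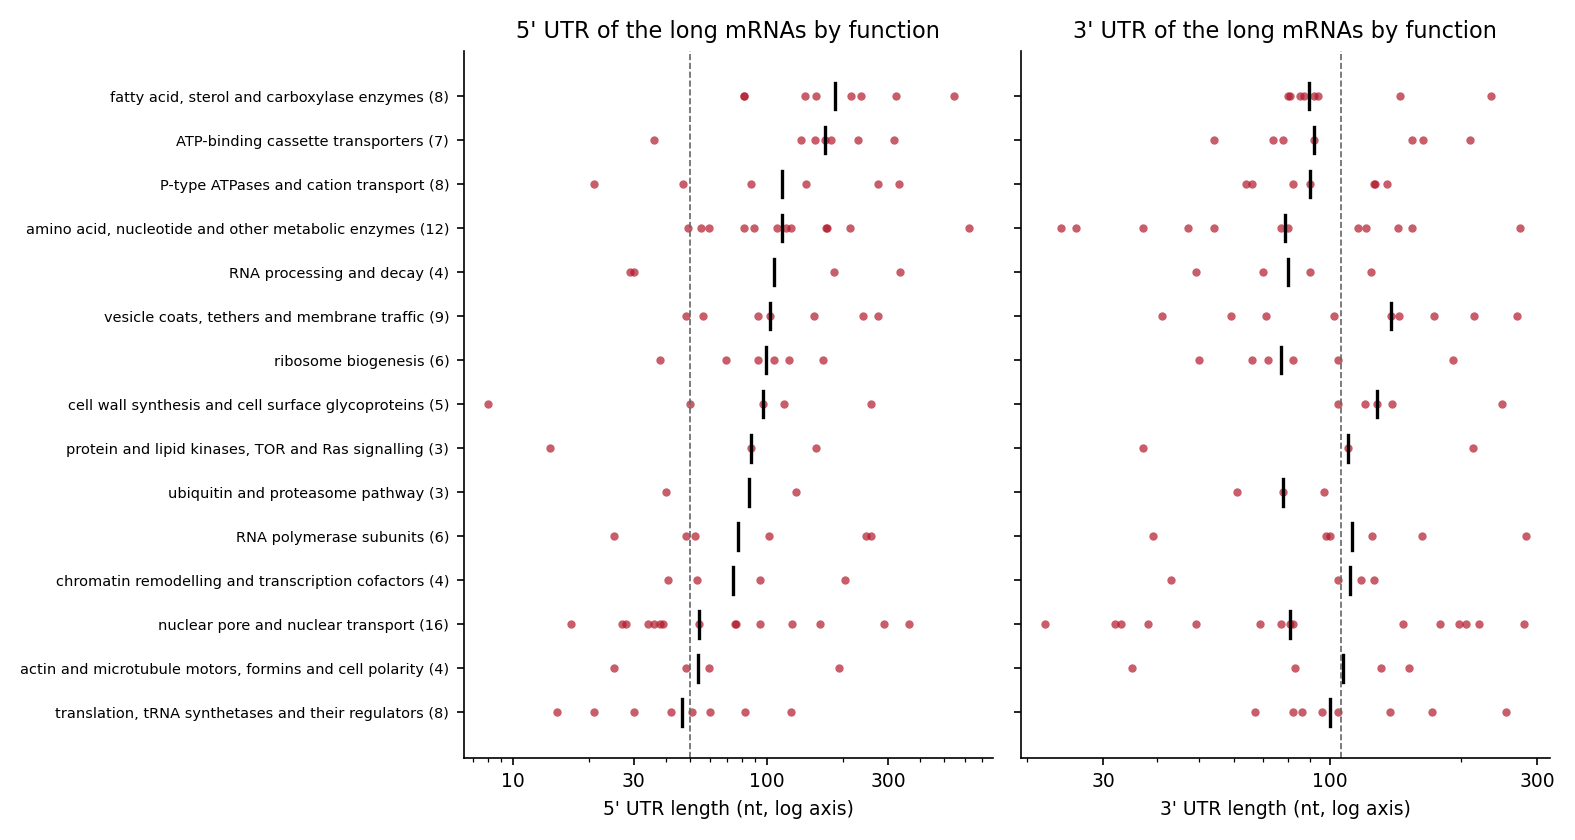
Listed 5' UTR (left) and 3' UTR (right) lengths of long genes (horizontal axes, nt, log scale) by gene list (rows, with the number of long genes on each), a dot for each mRNA, a black bar for the list median and a dashed line for the median of all mRNAs, 50 nt and 106 nt. List medians run from 46.5 to 185 nt at the 5' end and from 77 to 138 nt at the 3' end.

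Genes of vesicle coats and membrane traffic had the longest median 3' UTR of any list, 138 nt in 9 genes, from TRS120, a tethering complex subunit (41 nt), to CHC1 (270 nt). Their 5' UTRs had a median of 103 nt in 7 genes, from PAN1, of endocytosis (48 nt), to SEC7 (273 nt). Genes of cell wall synthesis and surface glycoproteins had a median 5' UTR of 97 nt, from MSB2 (8 nt) to FKS1, the catalytic subunit of glucan synthase (258 nt). Their median 3' UTR was 128 nt, with CHS1, a chitin synthase (104 nt), as the shortest and FKS1 (249 nt) as the longest. Ribosome biogenesis genes had medians of 99.5 nt at the 5' and 77 nt at the 3' end. UTP10 was the shortest at both ends (38 and 50 nt), and the longest were UTP22 (166 nt) at the 5' end and URB2 (192 nt) at the 3' end.

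The smaller lists are given by their ranges. Genes of RNA processing and decay ran from DIS3 (29 nt) to XRN1 (333 nt) at the 5' end and from MTR4 (49 nt) to XRN1 (124 nt) at the 3' end. Transcription cofactors ran from SPT5, an elongation factor (41 nt), to SIN3, a scaffold of histone deacetylases (203 nt), and at the 3' end from SPT5 (43 nt) to SPT16, a histone chaperone (126 nt). Motor and polarity genes ran from MYO5, a type I myosin (25 nt), to MYO2, a type V myosin (192 nt), and at the 3' end from MYO4 (35 nt) to MYO2 (152 nt). The 3 signalling genes ran from STT4 (14 nt) to CYR1 (156 nt) at the 5' end and from STT4 (37 nt) to CYR1 (213 nt) at the 3' end. Among ubiquitin and proteasome genes UBA1, the ubiquitin-activating enzyme, had 40 nt and BLM10 130 nt at the 5' end, and 97 and 61 nt at the 3' end.

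Both genes were long and listed for 7 of 30 related pairs examined. The nucleoporins NUP157 and NUP170 were alike, with 38 and 27 nt at the 5' end and 220 and 280 nt at the 3' end. The type V myosins were not, MYO2 having 192 and 152 nt and MYO4, which carries mRNA to the bud, 48 and 35 nt. PYC1 had 235 nt at each end and PYC2, the other pyruvate carboxylase, 141 and 94 nt. HMG1 had 81 and 145 nt and HMG2, its isozyme, 156 and 81 nt, so their order was opposite at the ends. The pairs SNQ2 and PDR12 (317 and 169 nt) and TSL1 and TPS3 (49 and 171 nt) also differed at the 5' end. DNF1 had a 3' UTR of 82 nt and no listed 5' UTR, and DNF2 had neither. The tricalbins, tethers between the endoplasmic reticulum and the plasma membrane, were named after their values had been seen: TCB1, TCB2 and TCB3 had 5' UTRs of 181, 187 and 157 nt and 3' UTRs of 116, 179 and 136 nt.

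No long gene was listed with an intron in its coding region, as each of the 146 had a single exon entry. The Wilson upper limit for 0 of 146 is 2.56%, and 6.63% of all mRNAs (199 of 3000) have an annotated intron of at least 10 nt. Leaving out ribosomal protein genes, it was 110 of 2716 other mRNAs (4.05%, 3.37 to 4.86%). Most of the 199 lie in shorter genes: among coding regions of 2000 to under 3000 nt the share was 5 of 320 (1.56%, 0.669 to 3.60%), whose interval overlaps that of the long genes. In R64, 11 of 523 reading frames of 3000 nt or more have an intron (2.10%, 1.18 to 3.73%), so the count of 0 describes the listed genes and not all long yeast genes.

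Overlaps with neighbours were about as common as in other mRNAs, with 23 of 146 long genes overlapping a listed neighbour (15.8%, 10.7 to 22.5%), where the share of all mRNAs is 16.8%. All but 1 of the 23 were with a convergent neighbour, one transcribed towards the long gene from the other strand. The exception was the tandem pair KRE33 and TOM22 (13 nt). Convergent sides also made up most overlaps of other mRNAs, with 426 convergent, 47 tandem and 18 divergent sides. Of the convergent sides of long genes, 22 of 88 overlapped (25%, 17.1 to 35%), against 29.3% (27.0 to 31.7%) in other mRNAs. Counting only neighbours that are also adjacent in R64, it was 22 of 46 (47.8%, 34.1 to 61.9%) and 420 of 776 (54.1%, 50.6 to 57.6%), again with overlapping intervals. None of 72 divergent sides of long genes overlapped (Wilson upper limit 5.07%), against 18 of 1464 in other mRNAs (1.23%), a share below that limit. The median overlap was 78 nt. The longest were those of TCB1 with OST3, of the oligosaccharyltransferase (261 nt, chromosome 15, 483105 to 483365), CYR1 with SYS1 (127 nt), RPO21 with BPL1, biotin-protein ligase (116 nt), CHS3, the main chitin synthase, with POA1 (114 nt), and the cation-chloride cotransporter gene VHC1 with ABD1, the cap methyltransferase (113 nt). The overlap with OST3 covered 145 nt of TCB1 coding sequence. In all, 10 overlaps reached the coding sequence of the long gene and 6 that of its neighbour. No such counts are given here for other mRNAs, so these are not set against a background.

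Space around the long genes was measured to mRNAs that are both listed and adjacent in R64. Upstream, the median gap was 457 nt (275 to 543 nt, 71 long genes), against 273.5 nt (259 to 288 nt, 1536 sides) in other mRNAs, with overlapping intervals. Downstream it was 85 nt (38 to 157 nt, 73 long genes), against 120 nt (108 to 133 nt). Long genes adjoined each other in 2 places: TRK1 and URA2 stood in tandem with 543 nt between them, and CHC1 and SPT16 converged with 70 nt between their 3' ends.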

How the data were processed

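The deposited file is an annotation that holds, per the design text, a gene, chromosome, start, end and feature per entry, counted from 1; its values are positions in another unit than expression, and the authors' cleavage values were not used here. The sources used here do not state how the authors set UTR ends, nor their aligner or genome build. Groups of libraries (4 RNase V1, 3 RNase S1) were taken from the labels and entered no comparison. Lengths are end minus start plus 1, and introns are gaps of at least 10 nt between exons. R64 (RefSeq) gave symbols, adjacency and sequence by gene name only: 21 of 146 coding regions had R64 coordinates, so positions of the builds were not mixed. Intervals at the 95% level were computed with scipy 1.17.1 and pandas 2.3.3 under Python 3.11.15 and tested on simulated data. The members, the gene lists and the related pairs were chosen with earlier results of these data known. Of 344 list symbols, 1 had no R64 match. The named genes are the 10 longest coding regions, the 5 longest and 5 shortest UTRs at each end, the longest and shortest of each list, the 5 longest overlaps, 3 genes on each side of the limit, and related pairs; other genes are examples picked with their values in view. The reading of leaders and 3' UTRs, the splice motifs, GC content, gaps between neighbours and the tricalbins were also chosen after seeing the data.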

Additional observations from a re-analysis of the deposited data

How the results depend on the processing

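Of 31 alternative settings, 29 left the value inside its 95% interval, but several of these could not move it. A reference protein of at least 1000 residues again gave 146 genes, and leaving out genes with an intron removed no long gene. Asking for both UTRs kept the same 135 leaders. The intron share was bound to stay at 0 with smaller gaps or a limit of 3600 nt. The count of 29 is therefore no measure of robustness. The median UTR share of the transcript, 4.92%, was 6.07% with a limit of 2400 nt, a change that follows from shorter coding regions. The share of leaders with an upstream ATG, 8.96%, was 4.48% when only the 100 nt before the start codon were read, against 12.1% in other mRNAs, and shorter leaders hold fewer ATGs by construction. It was 12% with a limit of 2400 nt and 7.04% with one of 3600 nt. The median 5' UTR ran from 76.5 nt (limit 2400 nt, 283 mRNAs) to 107 nt (limit 3600 nt, 78 mRNAs), and from 81 to 92 nt when each chromosome was left out. The median 3' UTR ran from 91 to 102.5 nt. The 4 alternatives for upstream ATGs were added after seeing the data. No paired analysis was possible because the file analysed holds gene positions alone, and for that reason the settings for RNase V1 against RNase S1 were not run. Depth could not be weighed.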

Other observations

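The annotation analysed here held 146 of the 523 nuclear reading frames of 3000 nt or more in R64 (27.9%, 95% Wilson interval 24.2 to 31.9%) and 2853 of 5479 shorter ones (52.1%, 50.7 to 53.4%). None of the 10 longest reading frames of the reference was among them. Coverage differed between the gene lists: 16 of 20 reference genes of this length on the nuclear pore and transport list, 6 of 7 on the RNA polymerase list, 12 of 14 on the list of amino acid, nucleotide and other metabolic enzymes and 8 of 10 on the translation list were listed. By contrast, 3 of 29 on the signalling list, 4 of 27 on the list of chromatin and transcription cofactors, 0 of 18 on the list of DNA replication and repair and 0 of 12 on that of cohesin, condensin and related complexes were. The lists were chosen with earlier results of these data known, so these counts describe the lists alone.

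Long genes lay on 15 of the 16 nuclear chromosomes. Chromosome 8 had 156 listed mRNAs and no long gene among them, although the reference has 20 reading frames of 3000 nt or more there, while chromosome 5 had 6 among 148. The share of long genes was highest on chromosome 10, with 15 of 180 mRNAs (8.33%), where 146 of all 3000 mRNAs were long. No interval was computed for it. On that chromosome 15 of 38 long reading frames of the reference were listed, and the share depends on which were listed.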
